A study of Homo sapiens with 6 samples.

Results

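HIF1A and 9 genes that the hypoxia-inducible factor is known to activate outside glycolysis were followed in HL-60 cells, an established human line of promyelocytic leukaemia kept as a suspension culture. The 10 members are HIF1A, NDRG1, BNIP3, BNIP3L, PDK1, VEGFA, EGLN1, EGLN3, P4HA1 and ANKRD37, taken by symbol from the 58302 genes of the deposited count tables. Cells carrying a short hairpin RNA (shRNA) against OSGEP, the catalytic subunit of the complex that places the t6A modification on tRNAs, gave 3 libraries. Cells carrying a control shRNA, labelled WT, gave the other 3. No label names a low-oxygen treatment, an oxygen level, a time after knockdown or a vector, and both groups were grown in the same serum-supplemented medium. No label says whether more than 1 hairpin or cell clone was used. The stated interest of the study was in growth, division and death of leukaemia cells after loss of OSGEP, and the labels do not mention the oxygen pathway.

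The hypoxia-inducible factor is a pair of proteins, an oxygen-regulated alpha subunit (HIF1A, or its relative EPAS1) and the constant partner ARNT. In oxygen, prolyl hydroxylases of the EGLN family mark the alpha subunit, the VHL ubiquitin ligase binds it and the proteasome removes it. Without oxygen it accumulates, binds short DNA elements with the core ACGTG or GCGTG and switches on genes that limit mitochondrial respiration, remove mitochondria, modify collagen, recruit vessels and feed back on the pathway itself. Control of HIF1A is thus mainly at the protein, which these mRNA counts do not measure. In leukaemia cells the pathway is known mostly from the low-oxygen niche of the bone marrow.

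In the OSGEP shRNA libraries 4 of the 10 members fell and 0 rose. NDRG1 fell to 0.255 of its control level, BNIP3 to 0.277, PDK1 to 0.319 and P4HA1 to 0.481. VEGFA and EGLN1 stood at 1.00 and 0.972 of control, HIF1A at 1.46 and BNIP3L at 0.791, and none of these 4 passed the test. EGLN3 and ANKRD37 were close to the limit of detection. Levels are read counts scaled to a common library total by the TMM method (CPM), with SD over the 3 libraries of a group. A gene is called higher or lower where the Benjamini-Hochberg adjusted p of edgeR's quasi-likelihood test over 14018 genes is under 0.05. Of all genes tested, 5.56% were called lower, 5.19% higher and 10.8% either way. Of the 10 members, 9 passed the filter on low counts and EGLN3 did not. The values of the groups did not overlap for 6 of these 9, beside 28.9% of all genes tested. With edgeR, 1 of the 9 was higher at an unadjusted p under 0.05 and 4 were lower, and DESeq2 and limma-voom also called 0 higher and 4 lower. The median log2 fold change of the 9 was -1.06, beside 0.005 over all genes tested. It counts ANKRD37 at -1.66 (SE 1.52), a value that rests on few counts.

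**Figure D1:**
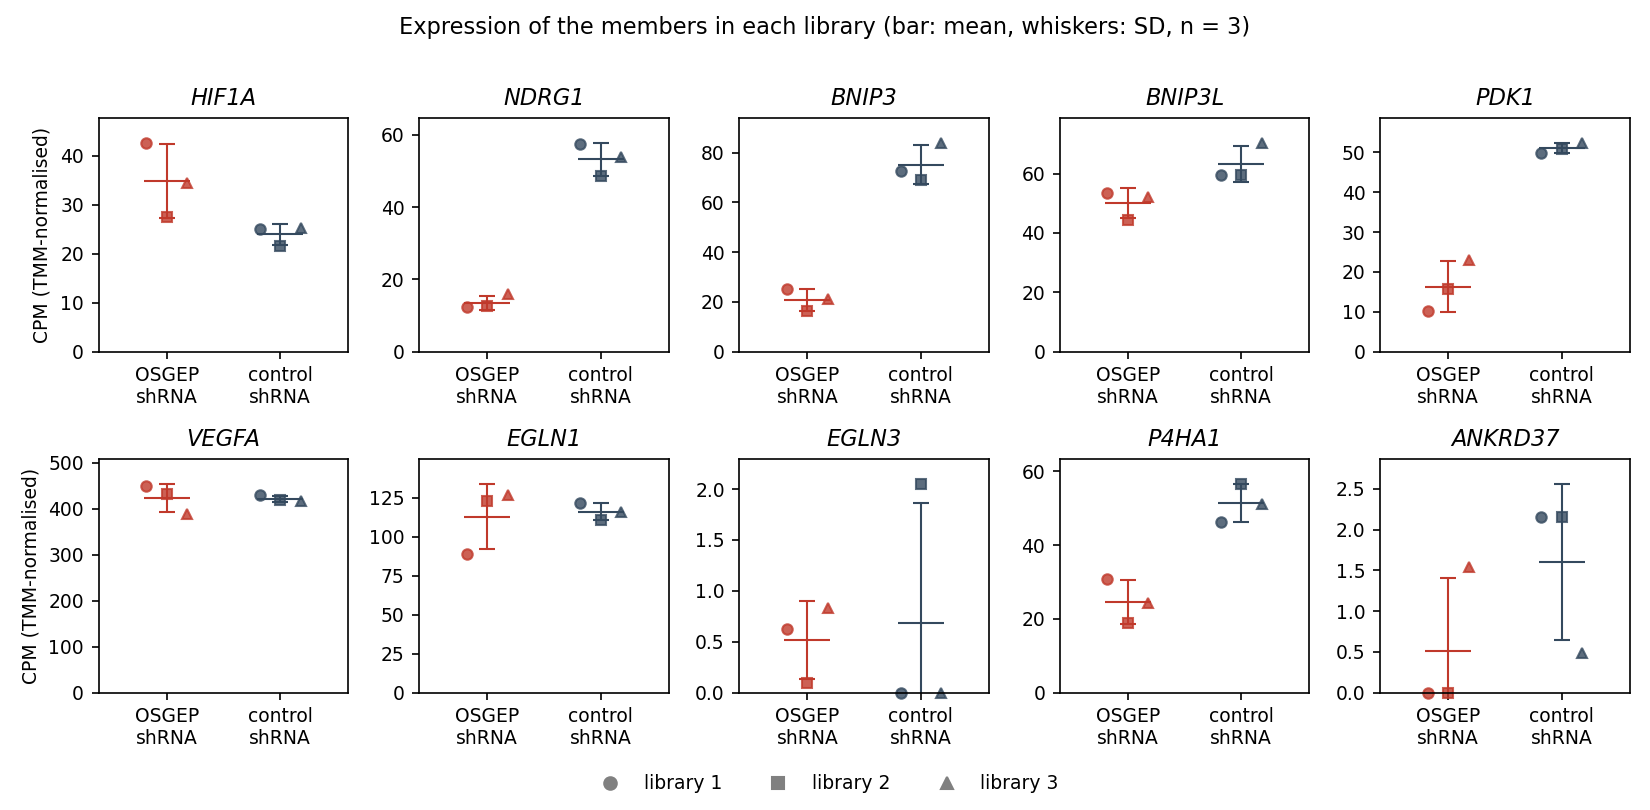
TMM-normalised CPM of each member in the 3 OSGEP shRNA libraries (left in each panel) and the 3 control shRNA libraries (right), on linear axes from 0, with the mean as a bar and the SD as whiskers (n = 3, cut at 0). NDRG1, BNIP3, PDK1 and P4HA1 lie lower in every OSGEP shRNA library than in any control library. The groups of HIF1A and BNIP3L, which were not called, do not overlap either. VEGFA and EGLN1 overlap, and EGLN3 and ANKRD37 stay under 3 CPM.

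Total counts ran from 8326982 to 10157091 in the OSGEP shRNA libraries and from 8414775 to 10025573 in the control libraries. OSGEP itself was at 21.2, 23.1 and 20.9 CPM in OSGEP shRNA libraries 1, 2 and 3, against 49.0, 54.4 and 76.9 CPM in control libraries 1, 2 and 3 (log2 fold change -1.47, SE 0.21, edgeR adjusted p = 0.000228). Its groups did not overlap, and OSGEP mRNA was still detected in every OSGEP shRNA library. OSGEP shRNA library 1 stood apart from its group on the second principal component, at 72.79 against -39.86 and -31.10 for OSGEP shRNA libraries 2 and 3, while the controls lay between -18.44 and 9.986. Values without that library are therefore given for some of the genes below. HL-60 was recognisable by its promyelocytic markers, all 10 of which were tested. Their summed level was 1670 to 1830 CPM in OSGEP shRNA libraries against 3520 to 3770 CPM in control libraries, and 5 of the 10 were called lower. Markers of other cells summed to far less, but not all were scarce. CD33 of the promyelocytic list was at 64, 62.9 and 78 CPM in control libraries 1, 2 and 3. In the controls NKG7 was above CD33 and PECAM1 was close to it (values below). These counts do not tell which cells held NKG7 and PECAM1 mRNA. Erythroid markers summed to 8.45 to 13.0 CPM in OSGEP shRNA libraries against 16.5 to 18.5 CPM in controls (1 of 9 tested, EPOR, with an edgeR adjusted p of 0.261), with HBG1 and AHSP at 0 counts in all 6 libraries. Lymphoid markers summed to 30.9 to 34.0 CPM in OSGEP shRNA libraries against 87.7 to 102 CPM in controls (2 of 10 tested), mostly NKG7, which was called lower with 24.4, 24.3 and 21.2 CPM in OSGEP shRNA libraries against 78.3, 87.4 and 92.4 CPM in controls. Epithelial, mesenchymal and endothelial markers summed to 63.8 to 81.5 CPM in OSGEP shRNA libraries against 73.8 to 90.7 CPM in controls (5 of 11 tested, with CDH1 called higher). Most of this was PECAM1, with 40.8, 60.8 and 38.5 CPM in OSGEP shRNA libraries against 61.1, 61.6 and 76.1 CPM in controls, not called. CDH5 had 0 counts in all 6. The single markers given here were named after their values were seen. The part of these shifts in the results below was not tested. In bulk RNA, fewer cells of a type and less RNA per cell cannot be told apart.

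HIF1A, the alpha subunit itself, is on chromosome 14 at 61695513 to 61748259, plus strand of GRCh38. It was at 42.6, 27.5 and 34.4 CPM in OSGEP shRNA libraries 1, 2 and 3, against 25.0, 21.5 and 25.2 CPM in control libraries 1, 2 and 3. All 3 OSGEP shRNA values were above all 3 control values, but the OSGEP shRNA libraries were spread widely, with library 1 highest. HIF1A averaged 34.8 ± 7.56 CPM in OSGEP shRNA libraries and 23.9 ± 2.11 CPM in control libraries (SD, n = 3 each), a log2 fold change of 0.54 (SE 0.23, 95% interval 0.045 to 1.04) with an edgeR adjusted p of 0.172. HIF1A was called in none of the 13 alternative fits (adjusted p between 0.0903 and 0.415), and without OSGEP shRNA library 1 the log2 fold change was 0.37. The antisense gene HIF1A-AS3, which overlaps it on the other strand, had 0 counts in every OSGEP shRNA library, against 0, 23 and 11 counts in control libraries 1, 2 and 3, too few to test. The library kit keeps strand, but whether the counting used it is not given in the sources used here, so reads of the pair may not be told apart. Among 10483 genes with a mean of at least 5 CPM, those whose log2 CPM was most like HIF1A over the 6 libraries were CYP4V2, ATAD3B, KRT8, FMR1 and CD44, with Pearson r of 0.998, 0.991, 0.990, 0.989 and 0.987. They share libraries and depth with HIF1A, and 1 of the 5, CD44, was called (log2 fold change 0.47, edgeR adjusted p = 0.0427). These r were picked as the highest of 10483 over only 6 libraries, where selection alone can give high values. Regulation shared with HIF1A was not tested.

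Among the effectors in mitochondria, BNIP3, an outer-membrane receptor that recruits the autophagy machinery to mitochondria, fell. It lies on chromosome 10 at 131966455 to 131982013, minus strand. Its level was 25.1, 16.3 and 21.1 CPM in OSGEP shRNA libraries 1, 2 and 3, against 72.6, 68.9 and 83.9 CPM in control libraries 1, 2 and 3. The highest OSGEP shRNA value was well under the lowest control value. This is a log2 fold change of -1.85 (SE 0.20, edgeR adjusted p = 1.32e-05), which stayed between -2.01 and -1.69 with any 1 library left out, called each time. BNIP3 has 44 annotated pseudogenes by name, of which 3 had at least 3 counts in all, so its count is uncertain where reads were shared. The best covered copy, BNIP3P1, had 49, 106 and 174 counts in OSGEP shRNA libraries 1, 2 and 3, against 262, 208 and 197 in control libraries 1, 2 and 3. These counts did not overlap either, with a log2 fold change of -1.03 (SE 0.39, edgeR adjusted p = 0.115). BNIP3P1 was lowest in OSGEP shRNA library 1, where BNIP3 was highest of its group.

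BNIP3L, the closest relative of BNIP3 and the receptor that clears mitochondria from maturing red cells, moved less. It lies on chromosome 8 at 26382898 to 26505636, plus strand. Its level was 53.5, 44.3 and 52.3 CPM in OSGEP shRNA libraries 1, 2 and 3, against 59.7, 59.7 and 70.4 CPM in control libraries 1, 2 and 3. The groups did not overlap, though they were close. The log2 fold change was -0.34 (SE 0.17, 95% interval -0.70 to 0.019, edgeR adjusted p = 0.249), and none of the 13 alternatives called it. The interval of BNIP3, from -2.28 to -1.42, lies wholly below that of BNIP3L. The difference between the 2 genes was not tested.

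PDK1, a kinase that switches off pyruvate dehydrogenase and so keeps pyruvate out of the mitochondrial citric acid cycle, fell. The gene lies on chromosome 2 at 172555373 to 172608669, plus strand. Its level was 10.1, 15.8 and 22.9 CPM in OSGEP shRNA libraries 1, 2 and 3, against 49.8, 50.9 and 52.4 CPM in control libraries 1, 2 and 3. The controls were tight, while the OSGEP shRNA libraries differed among themselves, with library 1 lowest. Its log2 fold change was -1.65 (SE 0.26, edgeR adjusted p = 0.000529), with -1.41 without OSGEP shRNA library 1 and -1.96 without OSGEP shRNA library 3. The antisense gene PDK1-AS1 had 14 counts over the OSGEP shRNA libraries and 29 over the controls.

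NDRG1, a cytoplasmic stress and differentiation protein named for its repression by MYC proteins, fell. It lies on chromosome 8 at 133237171 to 133302022, minus strand of the chromosome. Its level was 12.4, 12.5 and 15.8 CPM in OSGEP shRNA libraries 1, 2 and 3, against 57.5, 48.5 and 53.8 CPM in control libraries 1, 2 and 3. Both groups were tight and far apart. With all 6 libraries the log2 fold change was -1.97 (SE 0.22, edgeR adjusted p = 1.52e-05), and it stayed between -2.08 and -1.91 with any 1 library left out. MYC, a promyelocytic marker named here after its values were seen, was also called lower (log2 fold change -0.69, SE 0.11, edgeR adjusted p = 0.000602). A link between MYC and NDRG1 was not tested.

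P4HA1, the catalytic alpha subunit of collagen prolyl 4-hydroxylase, fell by a smaller amount. It lies on chromosome 10 at 73007217 to 73096974, minus strand. Its level was 30.8, 18.9 and 24.4 CPM in OSGEP shRNA libraries 1, 2 and 3, against 46.3, 56.6 and 51.1 CPM in control libraries 1, 2 and 3. The groups did not overlap. P4HA1 had a log2 fold change of -1.06 (SE 0.22, edgeR adjusted p = 0.00454), and between -1.25 and -0.88 with any 1 library left out, called each time.

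VEGFA, the growth factor that drives vessel formation, was by far the most abundant member and did not pass the test. The gene lies on chromosome 6 at 43770184 to 43786487, plus strand. Its level was 449.6, 431.7 and 389.6 CPM in OSGEP shRNA libraries 1, 2 and 3, against 429.6, 420.2 and 417.6 CPM in control libraries 1, 2 and 3. The control values lay inside the range of the OSGEP shRNA values. With 12263 counts over the OSGEP shRNA libraries and 11670 over the controls, the log2 fold change was 0.0041 (SE 0.099, 95% interval -0.21 to 0.22, edgeR adjusted p = 0.989). The upper end of the interval of each of the 4 members that fell is below the lower end of this one.

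EGLN1, the main hydroxylase that marks HIF1A for removal and itself a HIF target, also overlapped between the groups. The gene lies on chromosome 1 at 231363751 to 231425044, minus strand. Its level was 88.7, 123.1 and 126.5 CPM in OSGEP shRNA libraries 1, 2 and 3, against 121.7, 110.6 and 115.7 CPM in control libraries 1, 2 and 3. OSGEP shRNA library 1 was the lowest of all 6, and the other 2 were above every control. EGLN1 had a log2 fold change of -0.04 (SE 0.15, 95% interval -0.36 to 0.28, edgeR adjusted p = 0.921), and 0.10 without OSGEP shRNA library 1.

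The remaining 2 members were barely detected. EGLN3, the hydroxylase most strongly induced by hypoxia in many cells, lies on chromosome 14 at 33924231 to 34462774, minus strand, and had 6, 1 and 7 counts in OSGEP shRNA libraries 1, 2 and 3, against 0, 20 and 0 counts in control libraries 1, 2 and 3. A single control library held all the control counts, and the gene did not pass the filter. EGLN3 overlaps SPTSSA on the same strand, which had 1188 counts over the OSGEP shRNA libraries and 1865 over the controls. SPTSSA was called lower (log2 fold change -0.71, SE 0.17, edgeR adjusted p = 0.0137). ANKRD37, a small ankyrin repeat protein, lies on chromosome 4 at 185396021 to 185400628, plus strand, and had 0, 0 and 13 counts in OSGEP shRNA libraries 1, 2 and 3, against 21, 21 and 4 counts in control libraries 1, 2 and 3. It overlaps UFSP2 on the other strand, which had 322 counts over the OSGEP shRNA libraries and 236 over the controls. OSGEP shRNA library 3 lay between the control values. The log2 fold change of ANKRD37 was -1.66 (SE 1.52, 95% interval -4.88 to 1.57, edgeR adjusted p = 0.597), with -1.07 without OSGEP shRNA library 1 or 2, -3.23 by limma-voom and -3.56 with the replicate number as a block. Without OSGEP shRNA library 3 that group has 0 counts and no fold is given. No difference was detectable at this depth.

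**Figure D2:**
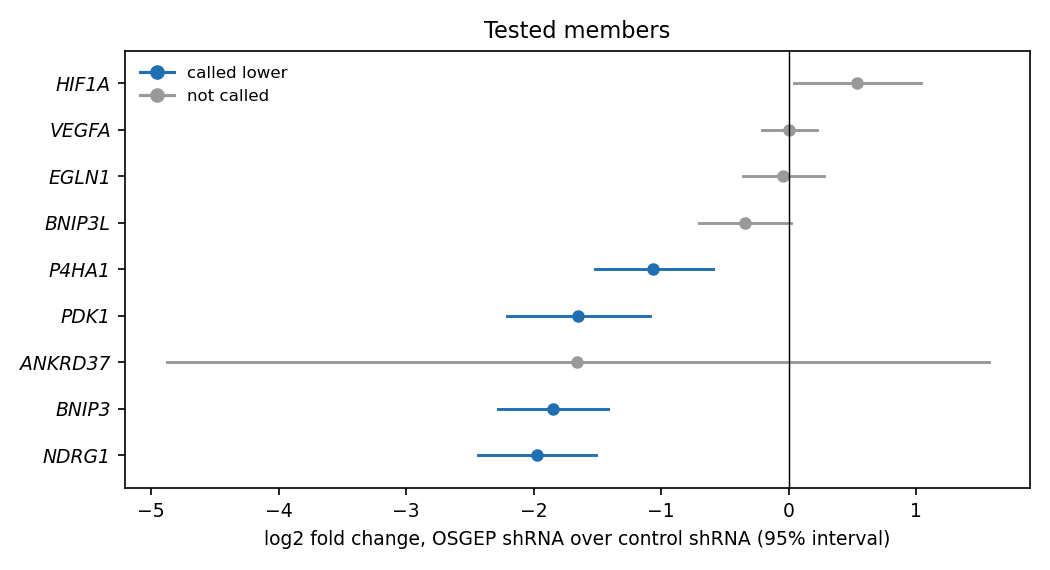
Log2 fold change (OSGEP shRNA over control shRNA) with its 95% interval for the 9 tested members, from the edgeR fit over all genes; blue marks genes called lower and grey genes not called. The intervals of NDRG1, BNIP3, PDK1 and P4HA1 end at -1.51, -1.42, -1.09 and -0.59, that of VEGFA runs from -0.21 to 0.22, and that of ANKRD37 is wide.

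Per kb of annotated exon, the order of the members' levels differed between the groups. In the OSGEP shRNA libraries VEGFA was highest at 29.4 CPM per kb, followed by EGLN1 at 15.5, BNIP3L at 11.6, P4HA1 at 7.98, HIF1A at 6.76, BNIP3 at 3.91, NDRG1 at 1.38, PDK1 at 1.09, ANKRD37 at 0.199 and EGLN3 at 0.0701. In the control libraries VEGFA was highest at 29.3 CPM per kb, followed by P4HA1 at 16.6, EGLN1 at 16.0, BNIP3L at 14.7, BNIP3 at 14.1, NDRG1 at 5.42, HIF1A at 4.64, PDK1 at 3.43, ANKRD37 at 0.621 and EGLN3 at 0.0927. In the OSGEP shRNA libraries EGLN1 and BNIP3L overlapped in range, as did P4HA1 and HIF1A, NDRG1 and PDK1, and ANKRD37 and EGLN3. In the controls the ranges of P4HA1, EGLN1, BNIP3L and BNIP3 overlapped neighbour by neighbour, so that their order is not resolved, and those of ANKRD37 and EGLN3 overlapped too. In the controls the ranges of BNIP3 and BNIP3L overlapped, while in the OSGEP shRNA libraries the highest BNIP3 value, 4.72 CPM per kb, was below the lowest BNIP3L value, 10.3. Annotated exons include long untranslated stretches that may not be used in these cells, so levels per kb are approximate.

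The stretches upstream of the members' start sites are shown because the members share this regulator by definition, while 4 were called lower and the others were not called. RefSeq promoter windows on GRCh38.p14, each 250 bases before to 50 after a start, matched 7 of the 10 members, with 9 windows, since HIF1A and PDK1 have 2 annotated starts each. NDRG1, BNIP3L and VEGFA were not matched. The RefSeq starts are not always the outer ends of the gene intervals given above. The windows of EGLN1, EGLN3 and ANKRD37, and of the downstream starts of HIF1A and PDK1, lie inside those intervals. The windows of BNIP3 and P4HA1 lie partly inside, also before the start. Windows at other starts of these genes were not searched. The core ACGTG was searched on both strands, where it reads ACGTG or CACGT; the palindrome CACGTG counts as overlapping matches on both strands. Among all 35116 windows, 21.4% held it. It was present in the windows of BNIP3, PDK1 (the downstream start, shown here), P4HA1, EGLN1 and ANKRD37 and not in those of HIF1A and EGLN3. The other core, GCGTG, was held by 36.5% of all windows, by the BNIP3 window at 4 places and by the upstream HIF1A window at 1, with no match in the others. The 250 bases before the start follow, 5′ to 3′ on the strand of the gene, with ACGTG or CACGT in capitals.
BNIP3, chr10:131981924-131982173, minus strand: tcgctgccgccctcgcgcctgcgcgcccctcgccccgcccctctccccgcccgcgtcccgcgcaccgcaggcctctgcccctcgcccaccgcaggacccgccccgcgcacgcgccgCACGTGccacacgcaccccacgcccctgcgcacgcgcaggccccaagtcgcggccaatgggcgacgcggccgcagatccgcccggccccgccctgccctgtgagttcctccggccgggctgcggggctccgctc
PDK1, chr2:172555840-172556089, plus strand: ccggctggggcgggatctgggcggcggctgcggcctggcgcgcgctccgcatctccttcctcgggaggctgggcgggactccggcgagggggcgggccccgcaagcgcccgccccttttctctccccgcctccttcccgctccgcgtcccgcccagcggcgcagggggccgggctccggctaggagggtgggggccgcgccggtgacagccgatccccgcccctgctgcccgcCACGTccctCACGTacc
P4HA1, chr10:73096867-73097116, minus strand: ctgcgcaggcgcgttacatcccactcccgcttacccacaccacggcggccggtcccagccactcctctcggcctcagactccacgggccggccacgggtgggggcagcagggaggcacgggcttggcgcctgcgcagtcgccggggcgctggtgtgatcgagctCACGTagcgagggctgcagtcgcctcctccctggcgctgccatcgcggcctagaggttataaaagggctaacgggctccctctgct
EGLN1, chr1:231422288-231422537, minus strand: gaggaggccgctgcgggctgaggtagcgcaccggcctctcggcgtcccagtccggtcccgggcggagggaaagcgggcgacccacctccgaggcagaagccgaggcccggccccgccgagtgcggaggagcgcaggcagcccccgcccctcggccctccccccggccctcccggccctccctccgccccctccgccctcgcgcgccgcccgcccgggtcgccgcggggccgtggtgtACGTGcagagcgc
ANKRD37, chr4:185396591-185396840, plus strand: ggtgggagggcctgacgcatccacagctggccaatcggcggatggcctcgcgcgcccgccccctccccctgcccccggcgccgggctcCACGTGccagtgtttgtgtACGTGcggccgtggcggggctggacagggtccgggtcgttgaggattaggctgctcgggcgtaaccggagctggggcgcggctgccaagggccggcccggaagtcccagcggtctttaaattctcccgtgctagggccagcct

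The match began 134 bases before the start in BNIP3 (-134), at -17 and -8 in PDK1, at -86 in P4HA1, at -13 in EGLN1 and at -162 and -143 in ANKRD37. Thus BNIP3, PDK1 and P4HA1, which fell, carried the core in this window, and so did EGLN1 and ANKRD37, which did not pass the test. A match in this window is a string of letters and does not show that the factor binds there.

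Among 20 genes of the HIF machinery (partners, hydroxylases, the ubiquitin ligase, coactivators and chaperones), 18 were tested, 1 rose and 1 fell, beside 10.8% of all genes called either way. EPAS1, which encodes the HIF-2 alpha subunit, rose. Its level was 28.8, 18.1 and 18.6 CPM in OSGEP shRNA libraries 1, 2 and 3, against 0.721, 3.17 and 1.48 CPM in control libraries 1, 2 and 3. The lowest OSGEP shRNA value was several times the highest control value. EPAS1 had a log2 fold change of 3.59 (SE 0.48, edgeR adjusted p = 0.000106), with 3.34 without OSGEP shRNA library 1. It was 3.21 without control library 1, the lowest control, and 4.31 without control library 2, the highest control. Per kb of annotated exon, EPAS1 made up 32.3%, 31.8% and 27.6% of the summed HIF1A and EPAS1 level in OSGEP shRNA libraries 1, 2 and 3, against 1.99%, 9.43% and 3.97% in control libraries 1, 2 and 3. HIF1A thus remained the more abundant alpha subunit mRNA in all 6 libraries.

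**Figure D3:**
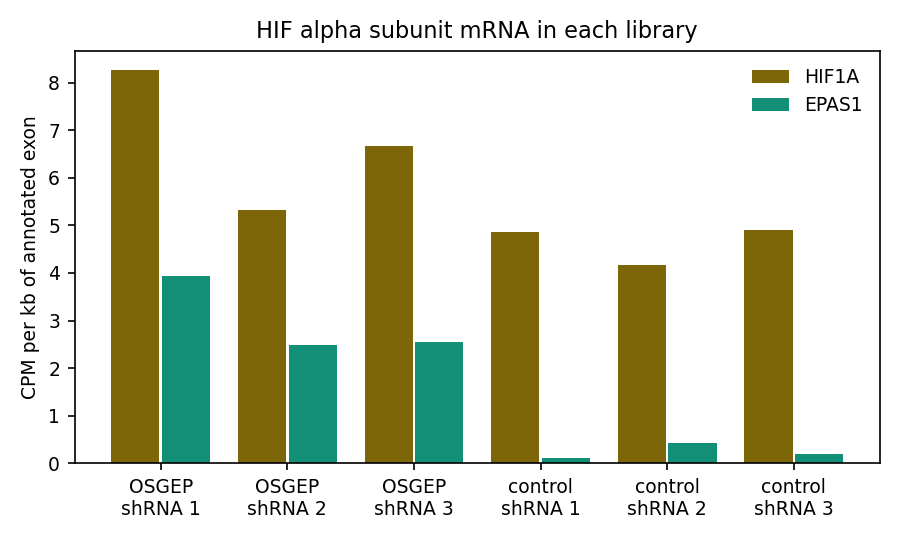
Level of HIF1A and EPAS1 mRNA in each library, in CPM per kb of annotated exon, with the OSGEP shRNA libraries on the left and the control shRNA libraries on the right; each pair of bars is 1 library. EPAS1 was 2.48 to 3.94 CPM per kb in OSGEP shRNA libraries and 0.0988 to 0.434 in control libraries.

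CITED2, a HIF target that competes with the alpha subunits for the coactivators EP300 and CREBBP, was the gene that fell. Its level was 179.4, 175.6 and 179.8 CPM in OSGEP shRNA libraries 1, 2 and 3, against 308.1, 282.5 and 301.0 CPM in control libraries 1, 2 and 3. Both groups were tight and did not overlap (log2 fold change -0.74, SE 0.11, edgeR adjusted p = 0.000234). Of the list, 16 were not called. The chaperone genes HSP90AB1, HSP90AA1 and PTGES3, the 3 most abundant of the list, had log2 fold changes of -0.17, -0.27 and -0.085. Without OSGEP shRNA library 1 the list held 4 called genes in place of 2, since HSP90AB1 (-0.26, adjusted p = 0.0115) and HSP90AA1 (-0.32, adjusted p = 0.0354) then passed the edgeR test as lower. Over the 18 genes tested the median log2 fold change was 0.0045, beside 0.005 over all genes.

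Other HIF targets outside glycolysis were mixed. Of 46 listed, 32 were tested, 5 rose and 5 fell, and 22 were not called. Over all genes tested 5.19% were called higher and 5.56% lower. The median log2 fold change of the list was -0.21. HMOX1, which degrades haem and is also a target of the oxidative stress factor NRF2, rose to 33.7 ± 1.95 CPM in OSGEP shRNA libraries, against 1.42 ± 1.65 CPM in control libraries (SD, n = 3 each; log2 fold change 4.62, SE 0.54, edgeR adjusted p = 2.77e-05). Control library 3 held most of the control signal, at 3.32 CPM beside 0.515 and 0.409 CPM in control libraries 1 and 2. The log2 fold change of HMOX1 was 6.15 without control library 3, 4.21 without control library 1 and 4.16 without control library 2. BHLHE41, a transcriptional repressor also active in the circadian clock, rose to 55.3 ± 10.6 CPM in OSGEP shRNA libraries, against 3.27 ± 1.82 CPM in control libraries (log2 fold change 4.10, SE 0.35). PLIN2, which coats lipid droplets and is also a target of lipid-sensing nuclear receptors, rose by 1.81 on the log2 scale (SE 0.16). STC2, a secreted glycoprotein also induced by the stress factor ATF4, rose by 1.78 (SE 0.24), and by 1.51 without OSGEP shRNA library 1. PLOD1, a collagen lysyl hydroxylase, rose by 0.76 (SE 0.18). Each of the first 4 was called in all 13 alternatives. PLOD1 lost its call without OSGEP shRNA library 3 (0.67), control library 2 (0.73) or control library 3 (0.72).

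Of the 5 that fell, CXCR4 held in all 13 alternatives. It is the chemokine receptor that keeps blood progenitors in the marrow, and it stood at 65.6 ± 3.94 CPM in OSGEP shRNA libraries, against 114.6 ± 9.36 CPM in control libraries (log2 fold change -0.81, SE 0.14, edgeR adjusted p = 0.00122). AK4, a mitochondrial adenylate kinase, was at 1.36, 8.78 and 5.46 CPM in OSGEP shRNA libraries 1, 2 and 3, against 29, 19 and 15.5 CPM in control libraries 1, 2 and 3 (-2.02, SE 0.50, edgeR adjusted p = 0.0142). Its groups did not overlap, but the call was lost without OSGEP shRNA library 3 (-2.05) or control library 1 (-1.73). The value was -1.57 without OSGEP shRNA library 1, the lowest of its group, and -2.65 without OSGEP shRNA library 2. MXI1, an antagonist of MYC, fell (log2 fold change -0.62, SE 0.15) but lost its call without OSGEP shRNA library 3 (-0.62) or control library 3 (-0.52). The zinc finger gene ZNF395 and the ubiquitin ligase gene WSB1 had edgeR adjusted p-values of 0.0444 and 0.0469, with log2 fold changes of -1.21 and -0.42. With 1 library left out, ZNF395 kept its call in 1 of 6 fits (-1.55 to -1.04) and WSB1 in 0 of 6 (-0.49 to -0.36). The list held 6 called genes without OSGEP shRNA library 3 and 6 without control library 3, in place of 10.

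**Figure D4:**
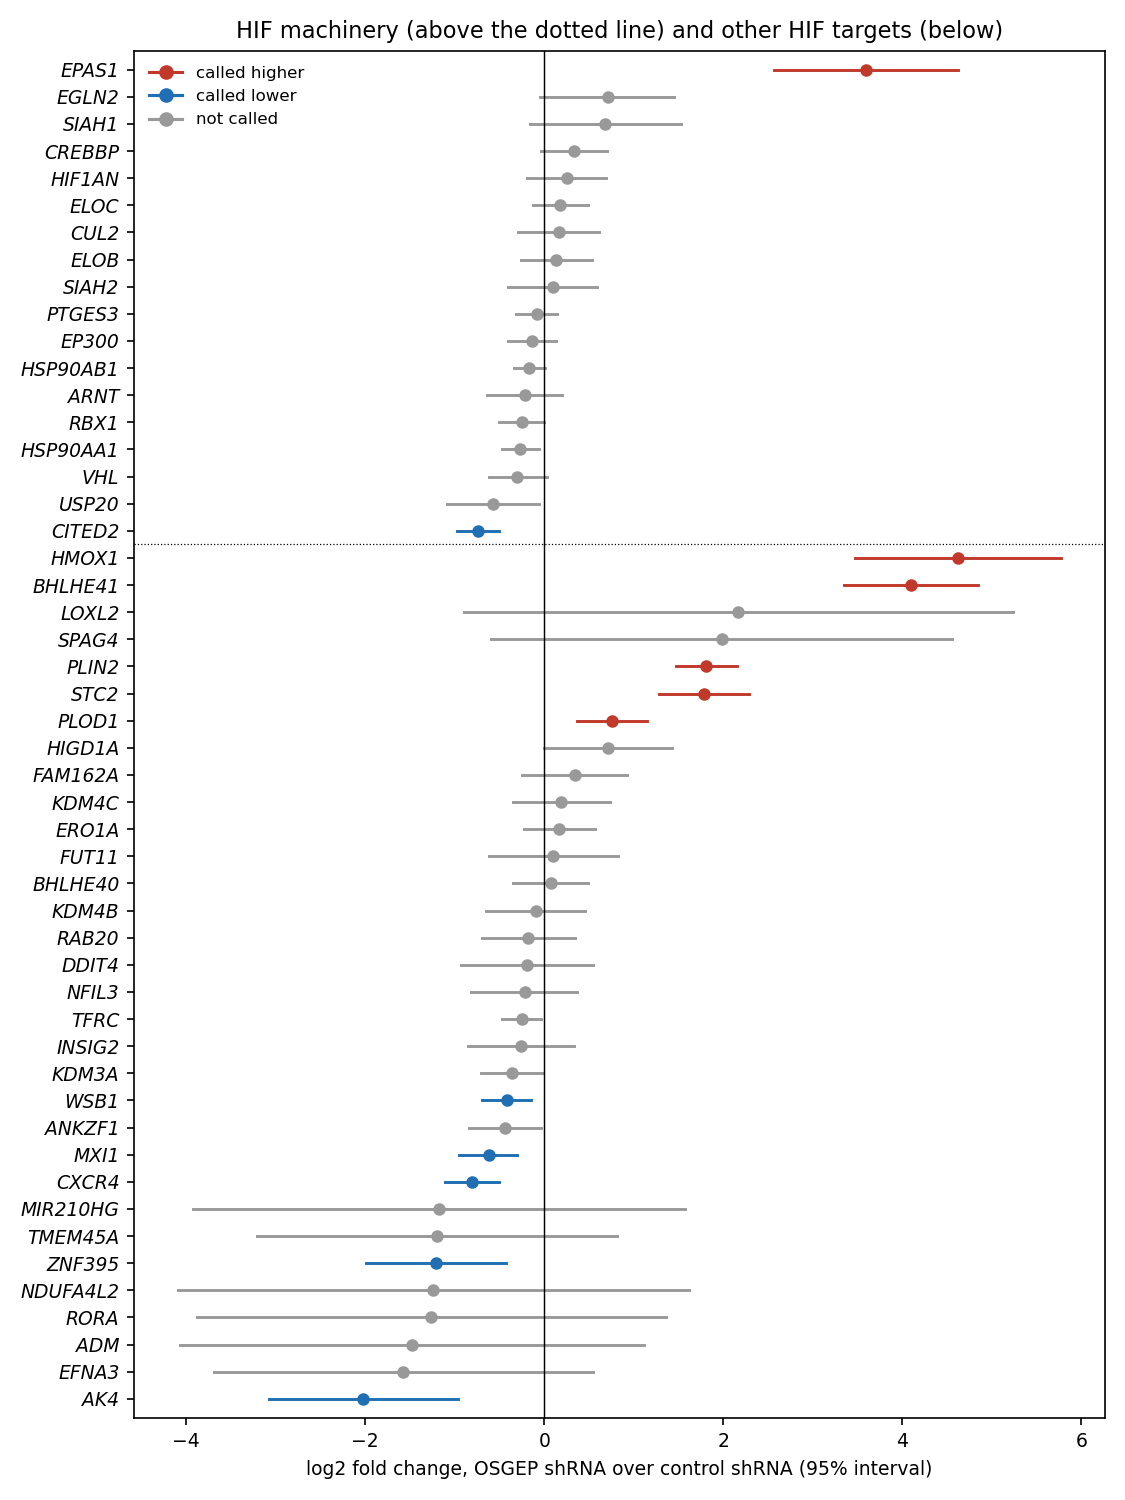
Log2 fold change (OSGEP shRNA over control shRNA) with its 95% interval for the tested genes of the HIF machinery (18, above the dotted line) and of the other HIF targets (32, below it), from the edgeR fit over all genes; red marks genes called higher, blue genes called lower and grey genes not called. EPAS1 at 3.59, HMOX1 at 4.62 and BHLHE41 at 4.10 stand far to the right, and wide intervals belong to genes of few counts.

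Several hypoxia targets of the same list were hardly read in this cell line. CA9, the cell-surface carbonic anhydrase widely used as a hypoxia marker, had 1 count over the OSGEP shRNA libraries and 1 over the controls. EPO, which encodes erythropoietin, had 7 counts, all in OSGEP shRNA library 2, against 0 in the controls. These genes, like the mitochondrial COX4I2 with 0 counts in all 6 libraries, were named after their values were seen.

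Close relatives and partners of the members were also listed. Of 25, 15 were tested, 2 rose and 0 fell, beside 5.19% called higher and 5.56% called lower over all genes. At an unadjusted p under 0.05, 3 were higher and 1 was lower. DESeq2 called 3 higher and 1 lower, and limma-voom 2 higher and 1 lower. VEGFB, a relative of VEGFA, was at 40.4, 42.0 and 35.6 CPM in OSGEP shRNA libraries 1, 2 and 3, against 15.7, 24.6 and 19.4 CPM in control libraries 1, 2 and 3 (log2 fold change 0.98, SE 0.24, edgeR adjusted p = 0.012). It lost its call without control library 1 (0.83) or control library 3 (0.96). NRP2, a co-receptor for factors of the VEGF family, was at 109.7, 87.8 and 93.2 CPM in OSGEP shRNA libraries, against 58.1, 55.6 and 48.2 CPM in control libraries (0.84, SE 0.16, edgeR adjusted p = 0.00196). Neither gene had groups that overlapped.

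The glycolytic targets of the factor, 20 genes that were all tested, gave 2 rises and 2 falls with a median log2 fold change of -0.051, beside 10.8% of all genes called either way. Among the called genes the largest rise was that of the hexokinase HK1 (1.37, SE 0.26, edgeR adjusted p = 0.0024), with 1.13 without OSGEP shRNA library 1. The largest fall among them was that of the glucose transporter SLC2A1 (-1.0, SE 0.26, edgeR adjusted p = 0.0225). The SLC2A1 call held in 1 of 6 fits with a library left out, with -1.23 to -0.70.

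Leaving out each library in turn changed the size of the members' fold changes but none of their calls. The range was narrow for NDRG1 and BNIP3 and wider for PDK1, where the OSGEP shRNA libraries disagreed. The count of called members was 4, all lower, in every fit with a library left out.

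**Figure D5:**
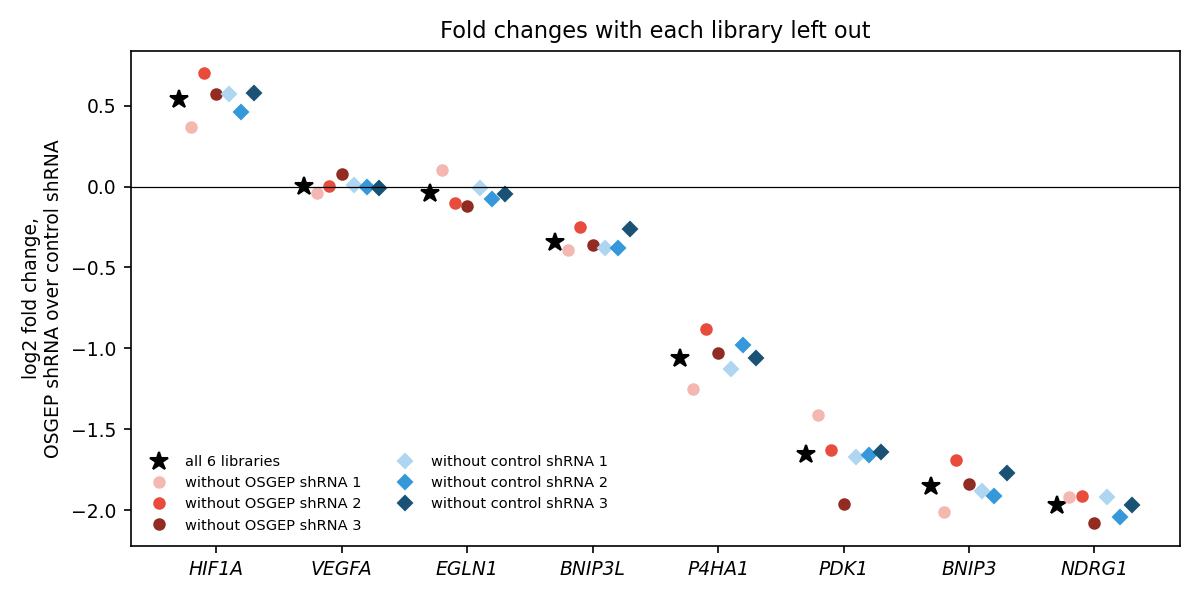
Log2 fold change (OSGEP shRNA over control shRNA) of 8 members with all 6 libraries (star) and with each library left out (circles for OSGEP shRNA libraries, diamonds for control libraries); ANKRD37 and EGLN3, with few counts, are not drawn. NDRG1, BNIP3, PDK1 and P4HA1 stay at or below -0.88 in every fit, while VEGFA and EGLN1 change sign around 0.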

How the data were processed

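Each library came as its own table of raw read counts for 58302 Ensembl genes, used as deposited. Per the submitters' processing notes, HISAT2 2.1.0, featureCounts 1.6.3 and the builds GRCh38 and GRCm38 were used, with no roles stated. The annotation release, the strand setting and the handling of multi-mapping reads: not given in the sources used here. Symbols came from a table of current names, and positions and exon lengths from GENCODE release 29 (GRCh38), which holds 58039 of the identifiers. Sample titles gave groups and replicate numbers. Separate cultures are not mentioned, so the p-values reflect the variation among these 6 libraries alone, which may be technical. Pairs of libraries within a group differed by a chi-square of 10.53 to 25.56 per degree of freedom over genes, and each was kept as 1 sample.

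Tests used edgeR 4.0.16 in R 4.3.3 (quasi-likelihood F test, two-sided, group as the only term, TMM, default filterByExpr with minimum count 10 and minimum total count 15), which kept 14018 genes. Adjustment of p-values was Benjamini-Hochberg, over all of them. Standard errors and 95% intervals were computed from the fold change, its F statistic and the total degrees of freedom of the fit (prior plus residual). The steps were tested on simulated counts that varied less between libraries than these data, whose common biological coefficient of variation was 35.2%. That test does not show how the steps behave at this variation. Alternatives were scaling by RLE or by library size alone, filtering at 1 read or at a mean CPM of 5, a block for replicate number, DESeq2 1.42.0, limma-voom (limma 3.58.1), each library left out, and an adjusted p of 0.01. The members and lists were chosen with earlier results of these data known. Genes named were OSGEP, all members, and the called genes of the machinery list with its 4 most abundant. Also named were the called other targets and relatives (mean CPM 5 or more) and the called glycolytic genes with the largest rise and fall. The 5 genes most like HIF1A, and some of the genes that overlap or copy a member, were named too.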

Additional observations from a re-analysis of the deposited data

How the results depend on the processing

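All 4 called members kept their direction and call in all 13 alternative fits and at an adjusted p of 0.01. VEGFA and EGLN1, which were not called, changed sign around 0. With 1 library left out VEGFA ran from -0.043 to 0.075 and EGLN1 from -0.12 to 0.10. VEGFA stood at -0.043 without OSGEP shRNA library 1, -0.0041 without control library 2 and -0.0081 without control library 3, and EGLN1 at 0.10 without OSGEP shRNA library 1 and 0.034 with library size alone. The count of genes called ran from 870 to 1624 with 1 library left out and was 823 at an adjusted p of 0.01, against 1507. Other HIF targets called ran from 6 to 8 with 1 library left out and numbered 5 at 0.01, against 10, and HIF machinery genes called ran from 2 to 4, against 2. DESeq2 called 1874 genes. Same-numbered libraries showed no shared shift, with correlations of deviations of -0.116, -0.0618 and -0.0368. OSGEP shRNA library 1 did not correlate best with its own number. The deviations were taken from the mean of 3 libraries, which ties these values together. They cannot show whether libraries were prepared in numbered pairs. With the replicate number as a block, 1072 genes, 4 members, 2 machinery genes and 8 other targets were called. With library size alone the median log2 fold change was 0.076, and 859 genes were called higher and 612 lower. Over 29 genes and 376 pairs of gene and alternative, 337 kept direction and side of the threshold, 31 lost the call, 3 gained it and 5 changed sign. Depth limits EGLN3 and ANKRD37, where a few counts decide the value.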
